A study of Mus musculus with 5 samples.

Results

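Skeletal muscle genes are described here in whole-retina RNA of diabetic and control mice. The set holds 37 genes of the contractile apparatus, the calcium release machinery and the energy supply of striated muscle, chosen by their function and by their signals on these 5 arrays, which were already known when the set was proposed. Of the 37, 36 had at least 1 probe set annotated with that symbol alone, out of 18193 genes measured. Myh13, the extraocular myosin heavy chain, had none, so the member that would mark extraocular muscle most directly was not measured here. Where a gene had several probe sets, the brightest on average stood for it.

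RNA came from 3 pools of diabetic and 2 pools of control mouse retinas, 1 Affymetrix whole-genome array per pool. For diabetic replicates 1 and 2, the 4 retinas of 2 mice were pooled after 5 weeks of diabetes caused by streptozotocin, which kills the insulin-producing cells of the pancreas. For diabetic replicate 3 the pool was larger, 6 retinas from 3 animals, and the experimentally induced diabetes had lasted 3 to 4 weeks. Control pools were made of 4 retinas from 2 age-matched animals, which were untreated and had normal blood glucose. The strain, sex and age of the mice are not given in the labels. Since retinas were pooled, the arrays do not show how mice within a pool differ. Rod photoreceptor genes were bright on every array, with summed signals between 478094 and 552047.

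A skeletal muscle fibre shortens when myosin heavy chains of the thick filament pull on actin of the thin filament. Calcium, released through the channel encoded by Ryr1 and returned to the sarcoplasmic reticulum by the pump encoded by Atp2a1, sets the thin filament on and off through the troponin complex. Fast and slow fibres use different genes for myosin, troponin and the calcium pump, and embryonic and perinatal myosins, silent in most adult muscles, persist in the extraocular muscles that move the eye. The neural retina holds no striated muscle, although it expresses single members of the set, such as Pvalb in some of its neurons.

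The upstream sequences of 27 of the 37 genes were found in RefSeq's promoter table (build GRCm38.p6). Those of 6 genes are printed as the 200 bases before the transcription start, 5′ to 3′ on the gene's own strand, because these genes carry the contrasts below: fast myosins that are neighbours on chromosome 11, the skeletal and the cardiac actin, and the fast and the slow troponin C. Capitals mark matches on either strand to an E-box (CANNTG), bound by myogenic factors of the MyoD family, to the MEF2 site or to the CArG box of serum response factor.
Myh1 (chr11:67199902-67200101, plus strand): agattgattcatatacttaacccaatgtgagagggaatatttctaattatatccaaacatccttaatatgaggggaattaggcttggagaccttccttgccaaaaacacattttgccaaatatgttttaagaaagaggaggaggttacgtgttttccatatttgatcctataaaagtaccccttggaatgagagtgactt
Myh4 (chr11:67237612-67237811, plus strand): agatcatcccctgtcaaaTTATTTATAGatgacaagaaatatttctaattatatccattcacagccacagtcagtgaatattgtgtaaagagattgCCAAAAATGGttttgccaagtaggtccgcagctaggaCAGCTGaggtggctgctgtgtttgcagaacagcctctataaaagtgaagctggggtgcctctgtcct
Acta1 (chr8:123894776-123894975, minus strand): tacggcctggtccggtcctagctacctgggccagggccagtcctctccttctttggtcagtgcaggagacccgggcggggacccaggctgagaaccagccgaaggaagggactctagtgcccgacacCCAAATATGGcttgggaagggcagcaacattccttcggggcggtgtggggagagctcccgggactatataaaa
Actc1 (chr2:114052876-114053075, minus strand): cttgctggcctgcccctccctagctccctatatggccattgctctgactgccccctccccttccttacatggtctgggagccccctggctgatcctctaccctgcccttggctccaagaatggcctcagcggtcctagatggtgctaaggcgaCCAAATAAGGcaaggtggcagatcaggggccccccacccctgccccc
Tnnc2 (chr2:164779735-164779934, minus strand): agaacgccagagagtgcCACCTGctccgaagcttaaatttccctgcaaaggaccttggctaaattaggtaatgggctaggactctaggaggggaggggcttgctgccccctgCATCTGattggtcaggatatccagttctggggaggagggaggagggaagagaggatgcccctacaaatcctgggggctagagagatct
Tnnc1 (chr14:31208112-31208311, plus strand): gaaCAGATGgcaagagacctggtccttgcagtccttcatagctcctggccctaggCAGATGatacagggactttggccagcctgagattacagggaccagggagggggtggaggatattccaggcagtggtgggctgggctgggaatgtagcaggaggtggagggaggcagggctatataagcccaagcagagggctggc
Among the 27 upstream sequences, 17 (63%) held an E-box, against 57.9% of all 27025 sequences of the same length. A MEF2 site stood in 5 (18.5%, against 2.35% of all) and a CArG box in 4 (14.8%, against 1.14%). Myh4 held all 3 kinds, with its MEF2 site overlapping a TATAAA match, while Myh1 held none of them. The actin genes Acta1 and Actc1 each held 1 CArG box. A match describes the letters only.

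The muscle genes were high in 1 pool of each group. The summed signal of the 36 measured genes was 15423, 15504 and 154255 in diabetic replicates 1 to 3 and 15453 and 94674 in control replicates 1 and 2. Diabetic replicate 3 thus stood 10 times above diabetic replicate 1 and 9.95 times above diabetic replicate 2, and control replicate 2 stood 6.13 times above control replicate 1. The 3 low pools, which belong to both groups, were nearly equal in this sum. Their sums were led by Pvalb and Eno3, which differed little among them, Pvalb running from 3238 to 3492. Other genes differed more. Ckm ran from 94.1 in control replicate 1 to 512.4 in diabetic replicate 1, and Myoz1 from 53.3 in diabetic replicate 1 to 571.9 in control replicate 1. Nearly equal sums thus do not show that each gene was equal in these pools. In whole-tissue RNA, a different number of muscle fibres and a different amount of RNA per fibre cannot be told apart.

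Counted gene by gene on the scale of log2(signal + 120.6), 18 of the 36 genes were at least 2 log2 units higher in diabetic replicate 3 than in both other diabetic pools and also at least 2 units higher in control replicate 2 than in control replicate 1. Over all genes measured, 19 of 18193 did so (0.104%). At 1 unit the counts were 25 of 36 and 52 of 18193 (0.286%), and at 3 units 11 of 36 and 12 of 18193 (0.066%). The pools of high signal were the 2 highest of the 5 for 33 of the 36 genes, against 9.86% of all genes. These counts describe the pattern with which the set was proposed and carry no test. The pseudocount of 120.6 compresses differences between low signals, since a signal near 0 is held at 6.91.

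**Figure D1:**
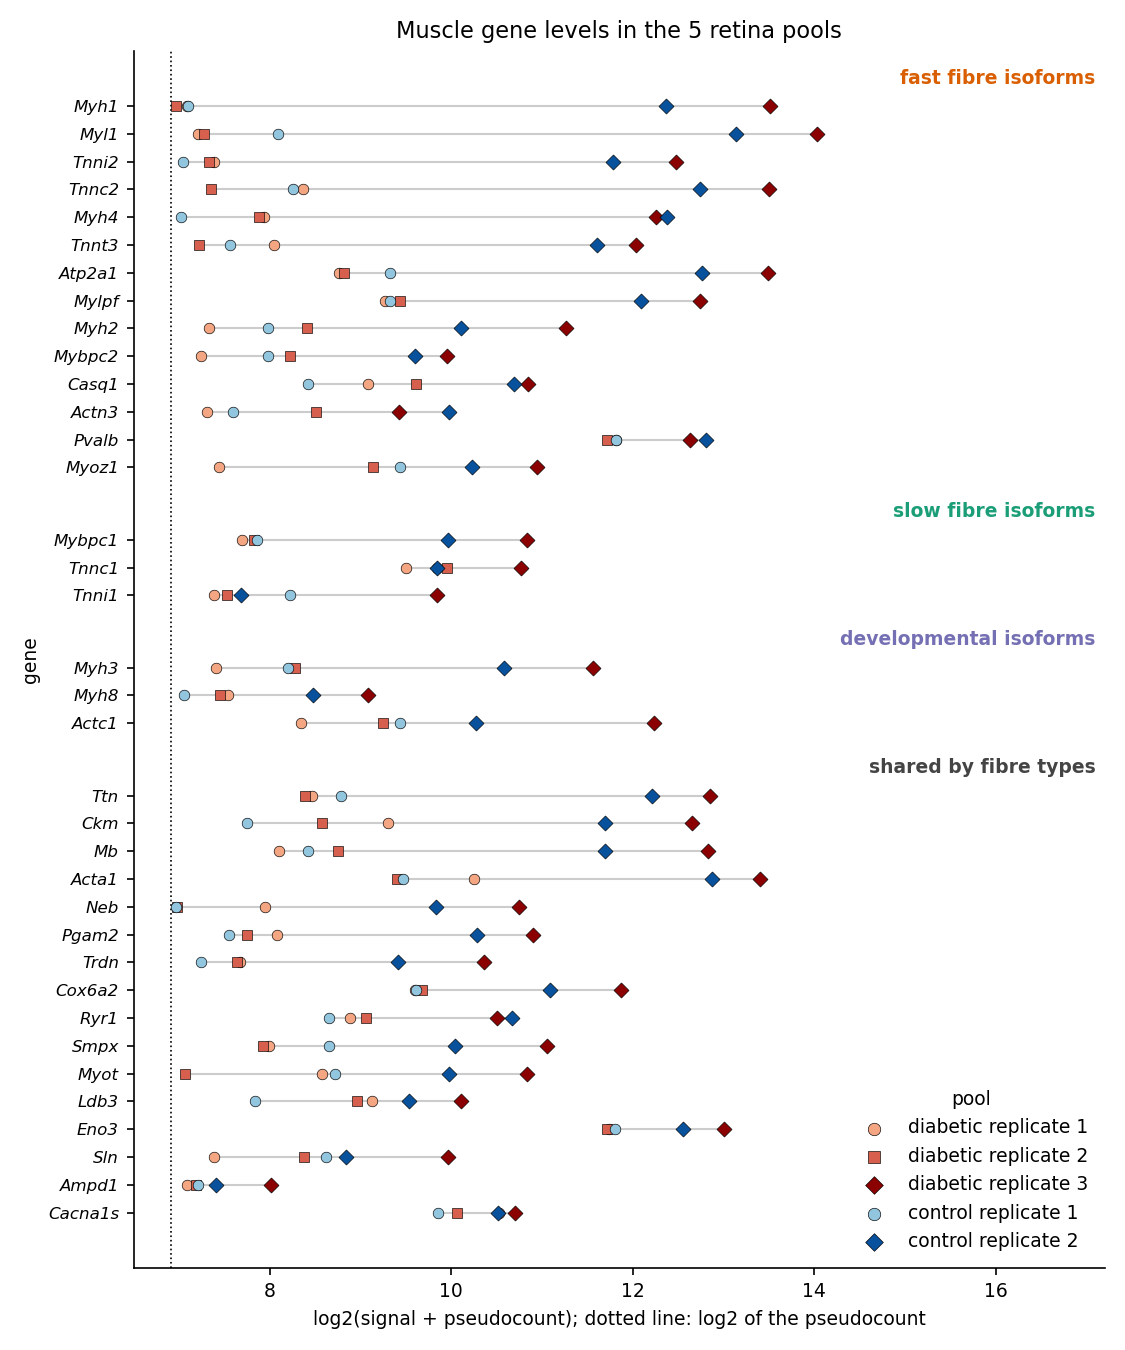
Levels of the 36 measured muscle genes, 1 row per gene, on the log2(signal + 120.6) scale; each symbol is 1 pool, diamonds mark diabetic replicate 3 and control replicate 2, and the dotted line is the floor set by the pseudocount (6.91). The diamonds lie to the right of the other symbols in most rows, with Tnni1 and Tnnc1 among the exceptions, where control replicate 2 lies among the low pools.

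Myosin heavy chains lie in 1 cluster on chromosome 11, in the order Myh3, Myh2, Myh1, Myh4, Myh8 and Myh13. Myh1, the fast IIx chain, had signals of 15.7, 4.9 and 11590 in diabetic replicates 1 to 3 and of 16.8 and 5141 in control replicates 1 and 2. It was near the lower end of the array's range in 3 pools and bright in the other 2. Myh4, the IIb chain of the fastest fibres, had signals of 124.8, 115.5 and 4785 in the diabetic pools and 9.1 and 5215 in the controls, and was the only heavy chain higher in control replicate 2 than in diabetic replicate 3. Myh2, the IIa chain of fast oxidative fibres, reached 2348 in diabetic replicate 3 and 979.2 in control replicate 2, against 40.1 to 219.9 in the remaining pools.

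Both developmental heavy chains followed the same pools. Myh3, the embryonic chain, had signals of 49.8, 190.2 and 2900 in the diabetic pools and 172.8 and 1413 in the controls. Myh8, the perinatal chain, was dimmer, with 65.6, 54.4 and 421.0 in the diabetic pools and 12.9 and 235.1 in the controls. For Myh8 the differences within the groups were 1.54 and 1.41 log2 units, below the 2-unit limit. Heavy chain genes are similar in sequence, and binding of one chain's RNA to another's probe set was not tested. Myhas, the antisense RNA gene that lies between Myh1 and Myh4 and was chosen after its values were seen, was at 8.60, 7.88 and 10.77 in the diabetic pools and at 7.89 and 9.74 in the controls on the log2 scale.

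**Figure D2:**
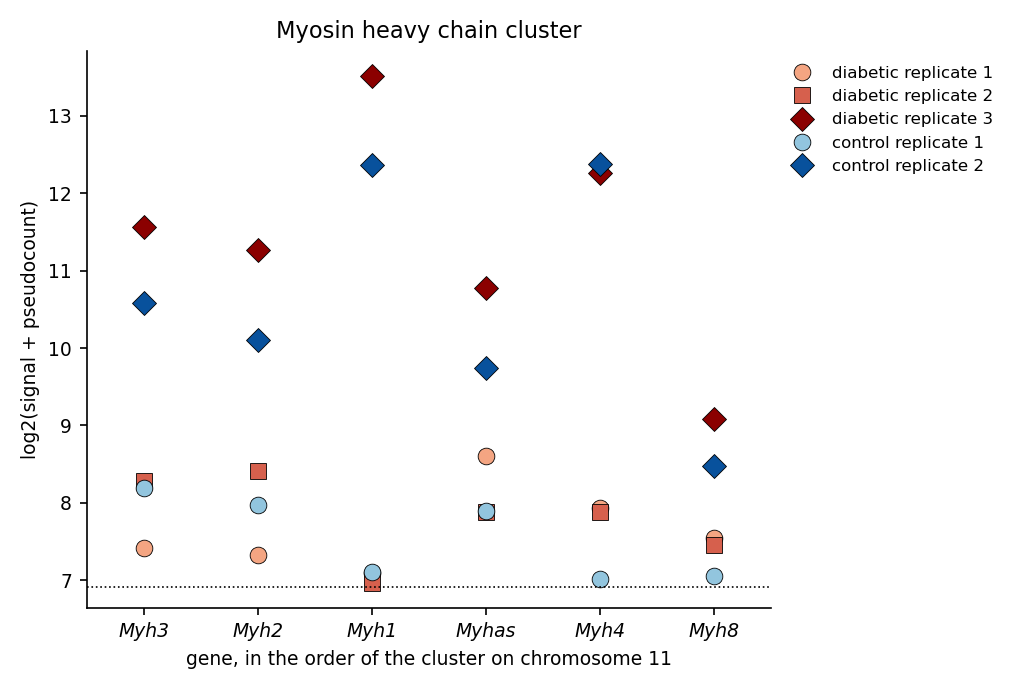
Levels of the myosin heavy chain genes and of the antisense gene Myhas, in their order on chromosome 11, on the log2(signal + 120.6) scale; each symbol is 1 pool and the dotted line is the floor of 6.91. Diabetic replicate 3 and control replicate 2 are above the other 3 pools for every gene shown, and they nearly coincide for Myh4 (12.26 and 12.38).

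Light chains and the thin filament separated the same pools. Myl1, the fast essential light chain, had signals of 27.6, 33.8 and 16671 in diabetic replicates 1 to 3 and 152.5 and 8889 in the controls, which put diabetic replicate 3 6.76 log2 units above the next diabetic pool. Mylpf, the fast regulatory light chain, had a visible signal in all pools, between 499.1 and 572.9 in the low ones, and reached 6709 and 4257 in the high ones. Acta1, the skeletal actin, followed with 1099, 555.3 and 10729 in the diabetic pools and 588.7 and 7379 in the controls.

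The fast troponin subunits, which place the calcium switch on actin, were higher in the same pools by 3.99 to 5.13 log2 units. Tnnc2, the fast calcium sensor, had signals of 210.7, 43.4 and 11443 in the diabetic pools and 185.3 and 6713 in the controls. Tnni2, the fast inhibitory subunit, had 47.2, 39.8 and 5579 against 11.9 and 3389. Tnnt3, the fast subunit that binds tropomyosin, had 142.9, 28.4 and 4069 against 68.6 and 2996. For all 3 genes the ranges of the groups overlapped almost completely.

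The slow troponin genes of the set behaved otherwise. Tnni1, the slow inhibitory subunit, had signals of 46.6, 63.8 and 798.2 in diabetic replicates 1 to 3 but 178.2 and 84.3 in control replicates 1 and 2. Control replicate 2 thus lay 0.54 log2 units below control replicate 1, though both signals were near the pseudocount of 120.6. Tnnc1, the troponin C of slow and cardiac muscle, had 604.3, 868.1 and 1619 in the diabetic pools and 794.5 and 798.6 in the controls, a difference between the controls of 0.01 log2 units. Diabetic replicate 3 was thus the highest pool for both, while control replicate 2 did not stand out. Mybpc1, the slow myosin binding protein C, differed from them and was high in both pools, at 10.84 in diabetic replicate 3 and 9.96 in control replicate 2 against 7.70 to 7.86 elsewhere on the log2 scale.

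Genes of slow and cardiac contraction outside the set were listed separately, 15 in all. None of the 15 reached 1 log2 unit in both groups, against 0.286% of all genes. Myh7, the slow heavy chain, was at 10.48 in diabetic replicate 3, and at 7.89 and 7.38 in the other diabetic pools and 7.18 and 7.59 in the controls. Myl2, the slow regulatory light chain, was at 10.74 in diabetic replicate 3 and between 7.93 and 8.74 in the other 4 pools. For these 2 genes, as for Tnni1, diabetic replicate 3 was high alone. Myoz2, a Z disc gene of slow and cardiac muscle, did not follow them, with 8.42, 7.22 and 9.22 in the diabetic pools and 8.86 and 8.97 in the controls. Tnnt1, the slow troponin T, lay between 11.10 and 11.42, without a pool that stood apart. The same held for Atp2a2, the calcium pump of slow muscle and of many other cells, between 15.07 and 15.28. Both were chosen after their values were seen.

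Actc1, the cardiac actin that developing skeletal muscle also uses, was likewise highest in diabetic replicate 3. Its signals were 203.9, 486.2 and 4690 in the diabetic pools and 569.5 and 1113 in the controls, which is 2.99 log2 units within the diabetic group and 0.84 within the controls. Sln, which encodes sarcolipin, an inhibitor of the calcium pump, had 46.0, 210.8 and 880.8 against 271.4 and 339.6. Diabetic replicate 3 exceeded every other pool by at least 1 log2 unit for 7 of the 36 genes, namely Actc1, Tnni1, Myh2, Myh1, Mb, Sln and Smpx, against 0.308% of all genes.

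**Figure D3:**
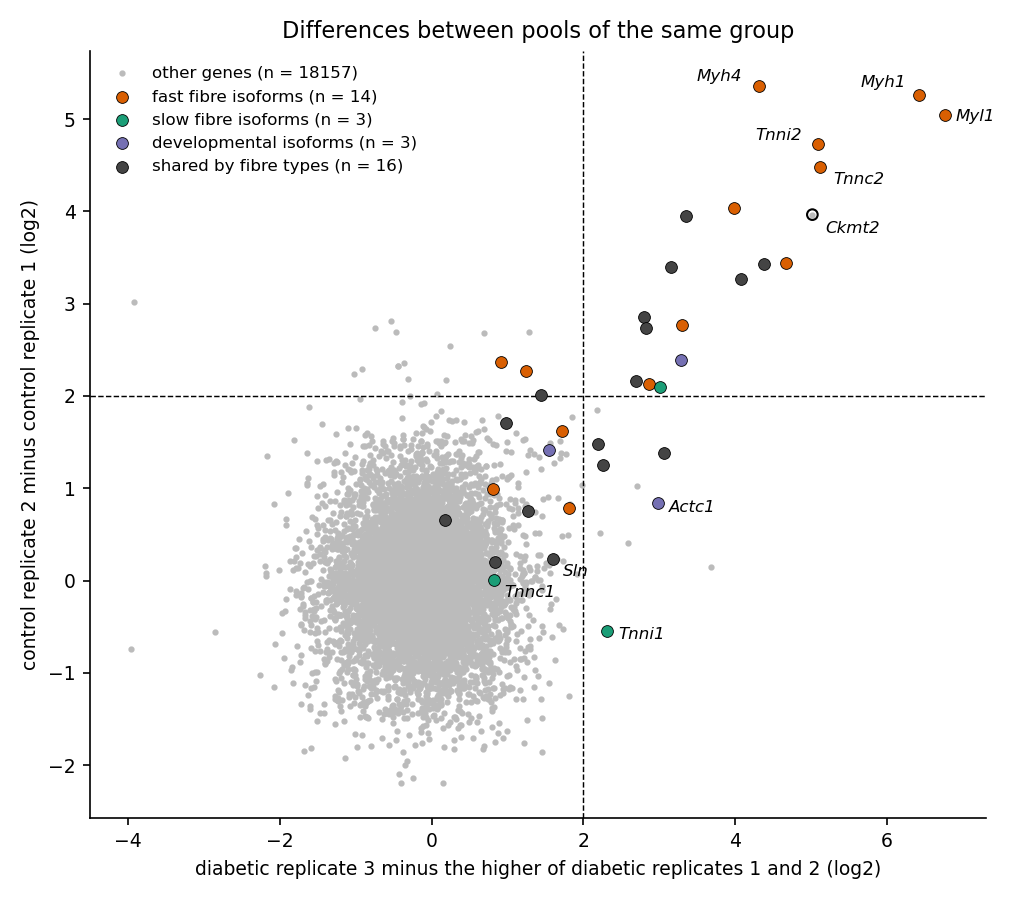
Difference between diabetic replicate 3 and the higher of the other diabetic pools (horizontal) against the difference between the control pools (vertical), both in log2 units, for 36 muscle genes coloured by fibre class and 18157 other genes in grey; dashed lines mark 2 units. The 18 muscle genes past both lines fill the upper right with fast isoforms outermost, and Ckmt2 is the 1 other gene there. Of the muscle genes, Tnni1, Actc1, Smpx, Myot and Cox6a2 pass the vertical line alone, and Tnnc1 lies at the edge of the grey cloud.

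Calcium handling genes spread over the whole range. Atp2a1, the calcium pump of fast fibres, had signals of 315.1, 330.2 and 11347 in diabetic replicates 1 to 3 and 522.2 and 6841 in the controls. Trdn, which encodes triadin, an anchor of the release complex, was higher by 2.69 log2 units in the high diabetic pool and by 2.17 in the high control pool. Ryr1, the release channel, had 351.9, 414.7 and 1335 against 283.5 and 1509, and Casq1, the fast calcium store protein, 421.8, 661.0 and 1723 against 221.7 and 1532. These 2 genes were nearly as high in control replicate 2 as in diabetic replicate 3, or higher. Cacna1s, the voltage sensor that opens the release channel, did not separate the pools, with signals of 1354, 949.6 and 1541 in the diabetic and 805.5 and 1340 in the control pools.

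Genes of the energy supply followed in graded steps. Ckm, the muscle creatine kinase, had signals of 512.4, 262.0 and 6337 in the diabetic pools and 94.1 and 3201 in the controls. Mb, myoglobin, had 154.5, 309.3 and 7141 against 222.4 and 3192, and Pgam2, a glycolytic mutase, 149.6, 95.4 and 1788 against 66.8 and 1130. All 3 passed the 2-unit limit. Cox6a2, a muscle subunit of cytochrome c oxidase, was higher by 2.19 and 1.48 log2 units and Eno3, the muscle enolase, by 1.27 and 0.76. Ampd1, an AMP deaminase, was dim in all pools, with a highest signal of 138.3 in diabetic replicate 3.

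Scaffold genes of the sarcomere included titin and nebulin, the giant rulers of thick and thin filaments. Ttn had signals of 233.1, 215.2 and 7257 in the diabetic pools and 321.6 and 4640 in the controls. Neb had 125.9, 5.8 and 1593 against 4.7 and 790.4. Of the Z disc genes, Smpx and Myot were higher by 3.06 and 2.26 log2 units in the diabetic group but by 1.38 and 1.25 in the controls. Actn3, the alpha-actinin of fast fibres, went the other way, with a difference of 0.92 log2 units in the diabetic group and 2.37 in the controls. Myoz1 (1.80 and 0.79), Ldb3 (0.98 and 1.71) and Mybpc2 (1.72 and 1.63), the fast myosin binding protein C, reached the limit in neither group.

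By fibre class, 9 of 14 fast genes passed the 2-unit limit, 1 of 3 slow genes, 1 of 3 developmental genes and 7 of 16 genes that fibre types share. The medians of the fast genes were 3.65 log2 units in the diabetic group and 3.11 in the controls. Those of the slow genes were 2.32 and 0.01, those of the developmental genes 2.99 and 1.41 and those of the shared genes 2.48 and 1.86. Over all genes the medians were -0.11 and 0.00, with 1% of genes above 1.07 and 1.32. No difference between classes was tested.

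Diabetic replicate 3 carried more muscle signal than control replicate 2 for most genes, yet not in a constant proportion. It was higher for 32 of the 36 genes, with a median difference of 0.72 log2 units, against a median of 0.00 and a 99th percentile of 1.37 over all genes. Among the 18 genes past the limit it was higher for 17, by a median of 0.82 and with a range from -0.12 for Myh4 to 1.17 for Myh2. Actn3, Pvalb, Ryr1 and Myh4 were the 4 genes higher in control replicate 2, by -0.55, -0.18, -0.16 and -0.12 log2 units in diabetic replicate 3. Actn3, Myh4 and Pvalb belong to the fast class, but 11 of its 14 genes were higher in diabetic replicate 3. The median difference over the 14 was 0.67. At the other end stood Tnni1 at 2.16, Actc1 at 1.96, Myh2 at 1.17, Myh1 at 1.15, Mb at 1.13 and Sln at 1.12. Each value compares 1 array with 1 array, so it has no replicate error.

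**Figure D4:**
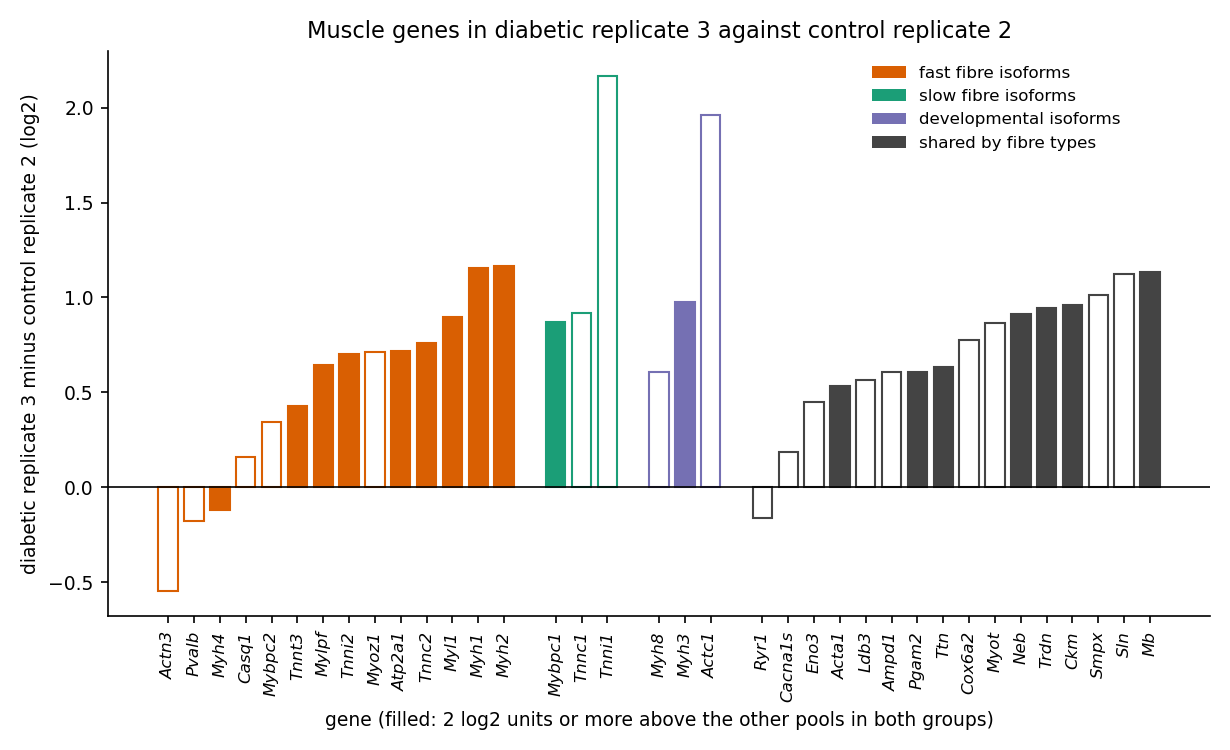
Difference between diabetic replicate 3 and control replicate 2 for each of the 36 muscle genes, in log2 units, ordered within fibre class; filled bars are genes at least 2 log2 units above the other pools in both groups. Most bars lie between 0 and 1.17, with Actn3 lowest (-0.55) and Tnni1 and Actc1 highest (2.16 and 1.96).

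Several members had a signal of 604.3 or more in all 5 pools, while the medians of the arrays ran from 634.6 to 714.7. Pvalb, the calcium buffer of fast fibres and of some retinal neurons, had signals of 3492, 3238 and 6213 in diabetic replicates 1 to 3 and 3486 and 7038 in the controls. Eno3 had 3292, 3249 and 8123 against 3442 and 5910. In both genes the 3 low pools were close to each other and the same 2 pools lay above them. Tnnc1 and Cacna1s, given above, also had signals of 604.3 or more in every pool, and Cox6a2 had 658.1 to 697.4 in the low pools. The source of these signals was not tested.

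Of the 36 genes, 13 had more than 1 probe set, which gave 25 further probe sets of lower mean. Among these 25, 5 were at least 1 log2 unit higher in both high pools. The second Myh1 probe set was higher by 6.19 and 5.41 log2 units, close to the 6.42 and 5.26 of the first, while the third stayed between 7.20 and 7.33 in all pools. A second Tnni2 probe set was higher by 3.83 and 3.24, a second Ttn probe set by 3.54 and 2.54 and an Ldb3 probe set by 2.31 and 2.25, more than the brighter Ldb3 probe set used for the gene. The further probe sets of Mb, Sln, Myoz1, Ryr1 and Myh4 did not reach 0.3 log2 units in either group. For Mybpc1, the 1 slow gene past the 2-unit limit, both further probe sets differed from the one used, with -1.09 and 0.58 log2 units in the diabetic group and -0.09 and -0.29 in the controls. Taking the brightest probe set can favour those that are bright in the high pools, and with the mean over probe sets 14 genes rather than 18 passed the limit.

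Between diabetic and control pools, the muscle genes overlapped. The groups did not overlap for 0 of the 36 genes, against 18.5% of all genes. The set was proposed with a high pool in each group already known, so overlap was largely fixed by that choice. The same choice widens the spread within groups, which bears on the tests of the members below. Of the 36, 15 were above the filter on dim genes and were tested, some of them through the high pools alone, and 21 were not tested. None of the 15 passed (limma over 10916 genes, Benjamini-Hochberg adjusted p = 0.999 for each), and 0 of 10916 genes passed (0%). At an unadjusted p under 0.05 the counts were 0 of 15 members and 370 of 10916 genes (3.39%). The level of Myl1 was 9.51 ± 3.92 (SD, n = 3) with diabetes and 10.62 ± 3.57 (SD, n = 2) without it, a difference of -1.11 (SE 2.08, 95% interval -5.86 to 3.64). Acta1 differed by -0.15 (SE 1.21), Ckm by 0.46 (SE 1.32) and Atp2a1 by -0.69 (SE 1.43). In these 4 genes the standard error exceeded the difference. Members that varied less had narrower intervals, as Cacna1s did at 0.25 (-0.34 to 0.83), Pvalb at -0.26 (-1.003 to 0.49) and Tnnc1 at 0.23 (-0.53 to 0.99).

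The median difference over all 36 genes was -0.16, with 12 higher and 24 lower in diabetic pools, against 0.00 over all genes. Its sign changed in some fits with a single pool left out, though the muscle genes above the filter changed too. Over the 15 muscle genes tested with all pools it was -0.15. Without diabetic replicate 1, 2 or 3 it was 0.23 (19 genes), 0.40 (18 genes) and -0.63 (8 genes). Without control replicate 1 or 2 it was -1.71 (20 genes) and 0.57 (9 genes). Without both high pools it was -0.05 over 5 genes. That fit, chosen after the data were seen, leaves 2 diabetic pools and 1 control.

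Other genes of striated muscle, from lists that exclude the 36, followed in part. Of 23 further sarcomere and fast fibre genes, 4 were at least 1 log2 unit higher in both high pools, against 0.286% of all genes. These were Mylk4, Tcap, Srl and Tpm2. Most of the list did not follow, with median differences of 0.64 log2 units in the diabetic group and 0.27 in the controls. Tcap, which caps titin at the Z disc, was at 10.77 in diabetic replicate 3 and 10.40 in control replicate 2, and at most 9.09 elsewhere. Desmin (Des) and Actn2 were highest in diabetic replicate 3, at 10.30 and 10.66, but Des was also at 9.86 in control replicate 1. Of 14 genes of muscle energy metabolism, Ckmt2 and Cox8b were at least 1 log2 unit higher in both high pools. The medians over the 14 were 0.22 in the diabetic group and 0.11 in the controls. Ckmt2, the mitochondrial creatine kinase of muscle, was at 7.16, 7.26 and 12.27 in the diabetic pools and 7.0 and 10.96 in the controls, and it was the 1 gene outside the set past 2 units in both groups.

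Genes of the nerve contact and of muscle precursors were mostly dim. Of 10 neuromuscular junction genes 3 were above the filter on dim genes, and of 9 myogenic and satellite cell genes 1. None of either list reached 1 log2 unit in both groups, against 0.286% of all genes. Chrna1, a subunit of the muscle acetylcholine receptor, was at 8.19, 7.31 and 8.22 in the diabetic pools and 8.87 and 7.93 in the controls. Myog, a myogenic factor, was at 8.83 in diabetic replicate 3 and between 7.17 and 7.57 in the other pools, while Myod1 was highest in diabetic replicate 1 at 9.04. None of the genes tested in these lists passed between diabetic and control pools.

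At 1 log2 unit, 27 genes outside the set followed both high pools. Ordered by the smaller of the differences in the groups, Ckmt2 and Myhas were followed by Mylk4, Tcap, Hrc, a calcium-binding protein of the sarcoplasmic reticulum, Nlrp4c and Rpl3l, a ribosomal protein of striated muscle. Hrc was at 9.38, 9.01 and 10.94 in the diabetic pools and 8.89 and 10.39 in the controls, and Rpl3l at 7.30, 7.89 and 9.66 against 7.17 and 8.54. Others included Hjv, Cmya5, Smtnl1 and Apobec2. The 27 were not all genes of striated muscle. Nlrp4c, Pbsn and Krtap6-2 stayed at 8.86 or below in every pool, while Ifi27l2a, an interferon-induced gene, reached 10.66 in control replicate 2, and Pkp3, a desmosome gene, 10.06 in diabetic replicate 3. Plxnb3 reached 9.79 in diabetic replicate 3 and Cyp2f2 9.30 in control replicate 2. Apart from Ckmt2 and Mylk4, the genes named here, and Tcap, Srl and Tpm2 above, were chosen after their values were seen.

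Markers of other tissues around the retina also varied among the pools. Summed signals of 10 fibrous connective tissue genes were 8216, 5463 and 8748 in diabetic replicates 1 to 3 and 6057 and 15509 in the controls. Dcn, a collagen-binding proteoglycan, was at 10.76, 7.49 and 10.22 against 8.72 and 11.53 on the log2 scale, so Dcn was high in diabetic replicate 1, where the summed muscle signal was low. Tnmd, a tendon gene, was at 9.87 in control replicate 2 and between 7.25 and 8.41 elsewhere. Of the 10 genes, 7 were highest in control replicate 2 and 2 in diabetic replicate 3. Over 5 measured fat cell genes the sums were 5827, 7146 and 9550 against 6543 and 14138, with 4 of 5 highest in control replicate 2. Within each group, both sums were highest in the pool of high muscle signal, by a small margin over diabetic replicate 1 for connective tissue, and control replicate 2 stood above diabetic replicate 3, the reverse of the muscle order.

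Melanosome genes summed to 23851, 3669 and 15355 in the diabetic pools and 6007 and 20881 in the controls, so diabetic replicate 1 was the highest. Pmel was at 12.10 there, against 11.35 in diabetic replicate 3 and 12.07 in control replicate 2. Pigment epithelium genes summed to 94457, 124400 and 88229 against 142042 and 184114, with diabetic replicate 3 the lowest. Smooth muscle genes summed to 14462, 8871 and 11736 against 10066 and 12499. Of these, 0 of 9 reached 1 log2 unit in both groups, against 0.286% of all genes. Cornea and conjunctiva genes summed to 2361, 998 and 2376 against 1249 and 1357. Within each group the pool of high muscle signal had the highest sum, with diabetic replicate 1 nearly equal to diabetic replicate 3. The genes did not move together. In control replicates 1 and 2, Krt12 was at 8.6 and 8.25 and Krt14 at 7.76 and 8.62 on the log2 scale. Of the 6 genes, 0 were above the filter on dim genes. Retinal neuron genes summed to 168617, 181661 and 156429 against 160834 and 156012, with both pools of high muscle signal the lowest of their groups. The 5 measured Schwann cell and myelin genes lay between 6125 and 6948 in sum. No signal in the table is 0, the lowest being 0.606, so no marker is listed as absent. The part of these tissues in the muscle pattern was not tested.

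**Figure D5:**
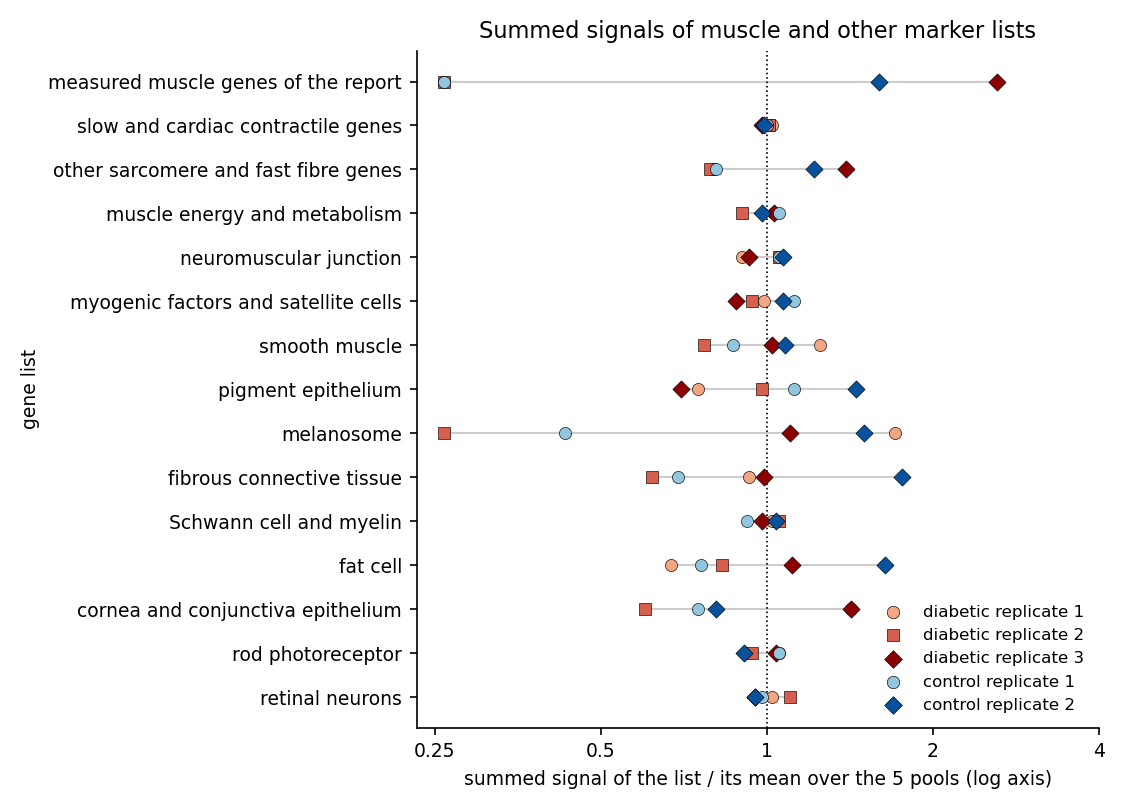
Summed signal of each gene list in each pool, divided by the mean of that sum over the 5 pools, on a log axis; each symbol is 1 pool, and sums are led by the brightest genes of a list. The muscle genes run from 0.26 in 3 pools to 1.6 in control replicate 2 and 2.61 in diabetic replicate 3, rod genes stay between 0.91 and 1.05, and the melanosome, connective tissue and fat cell lists order the pools differently.

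Array-wide measures say little about single pools. All arrays had the same mean of 2500.0 without the lowest and highest 2% of values. Such equality points to scaling to a common value, so this mean could not differ between pools. The medians of the arrays ran from 634.6 to 714.7. The ratio of 3′ to 5′ beta-actin signal was 4.32 in diabetic replicate 2, against 2.01 to 2.71 in the other pools. Correlations between arrays across genes were 0.979 to 0.983, although genes are not independent replicates. These ranges of medians and correlations do not show which pools differ.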

How the data were processed

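The labels give 3 diabetic and 2 control pools, 1 array each. Groups and replicate numbers came from the sample titles. The deposited values are intensities, 1 signal per probe set on a linear scale, as the authors' value table gives them. How the probes were summarized, background-corrected and scaled is not given in the sources used here. The shared mean of 2500.0 without the lowest and highest 2% of values points to scaling of each array to that value. The table held 45101 probe sets, 64 of them controls. There were 34945 probe sets with 1 gene symbol and 932 with several, and 34741 of the symbols were matched by Entrez ID to RefSeq's GRCm38.p6 gene table.

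A pseudocount of 120.6, the 20th percentile of the table, was added before log2. Each gene took its brightest probe set. The upper 60% of genes by mean, 10916 of 18193, were tested with limma, using lmFit and the eBayes trend option, on 3 residual degrees of freedom. Adjusted p-values (Benjamini-Hochberg) were called at 0.05. The fit was tested on simulated data. A p-value compares pools, and the number of arrays limits the precision.

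Differences between pools of 1 group compare single arrays and have no test. The members, the other gene lists and the 2-unit limit were chosen with earlier results of these data known. Named by rule were all members, up to 3 genes of widest range in each other list and up to 12 further genes past 2 units in both groups. Motifs were searched in the 200 bases before the start, 1 sequence per gene, outside chromosome 18. Alternatives covered scaling, pseudocount, filter, probe sets, variance model, replicate block and arrays left out. The tools were limma 3.58.1 under R 4.3.3 and Python 3.11.15 with pandas 2.3.3 and matplotlib 3.10.9.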

Additional observations from a re-analysis of the deposited data

How the results depend on the processing

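No muscle gene passed between diabetic and control pools in limma under any setting run. The count over all genes was 0 with all pools and 0 to 1 with single arrays left out (1 when diabetic replicate 2 or diabetic replicate 3 was dropped). The count was 2 with the replicate block and 2 without diabetic replicate 3 and control replicate 2, a setting added after the data were seen. Where 1 control array is left, it is assumed to vary like the diabetic arrays. The replicate numbers are not said to pair pools, and the differences between replicates 1 and 2 of the 2 groups were not related across genes (r = -0.01). With the replicate block the median over the muscle genes was -1.06. No control has the number 3, so diabetic replicate 3 does not enter that difference. Control replicate 2, where most members were high, does enter it. The choice of genes thus pulls the difference down, and neither it nor the count that follows can be read as an effect of diabetes. The block also leaves fewer residual degrees of freedom than the main fit. In that limma fit 8 of 15 muscle genes had an unadjusted p under 0.05, against 386 of 10916 genes. The smallest adjusted p of a muscle gene there was 0.862, and genes are not independent of each other.

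The number of genes high in 1 pool of each group was 11 with a limit of 3 log2 units and 25 with 1 unit, against 18. It lay between 12 and 20 under the scaling, pseudocount and probe set alternatives, and between 18 and 19 without diabetic replicate 1 or 2. Leaving out any of the other 3 arrays gives no such count.

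Single differences changed sign easily. Actc1 was -0.04 with a pseudocount of 1, and with the replicate block Actc1 was -1.06, Casq1 -0.21, Ckm -0.78, Cox6a2 -0.71 and Tnnc1 -0.12. With single arrays left out, the ranges were -1.85 to 1.55 for Acta1, -0.33 to 0.89 for Actc1, -2.41 to 1.03 for Atp2a1, -0.08 to 0.57 for Cacna1s, -0.84 to 0.67 for Casq1, -1.52 to 1.26 for Ckm and -0.71 to 0.77 for Cox6a2. They were -0.45 to 0.36 for Eno3, -1.80 to 0.73 for Mb, -3.63 to 0.04 for Myl1, -1.61 to 1.16 for Mylpf, -0.75 to 0.24 for Pvalb, -0.12 to 0.52 for Tnnc1, -3.0 to 0.44 for Tnnc2 and -2.31 to 0.16 for Ttn. A gene that falls below the filter when an array is left out has no value there.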
